A study of Homo sapiens with 11 samples.

Results

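Phosphorylation of the translation initiation factor eIF2 on its alpha subunit is set by 4 kinases and by 2 regulatory subunits that bring protein phosphatase 1 to eIF2. The 6 genes that encode them, EIF2AK1, EIF2AK2, EIF2AK3, EIF2AK4, PPP1R15A and PPP1R15B, were taken by symbol from the table of expected counts and described over its 11 conditions. All 6 were found among 38019 genes, and all 6 were among the 17792 that passed the filter on low counts.

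Each kinase answers a different stress and all of them phosphorylate the same serine of eIF2 alpha. Phosphorylated eIF2 holds back its own exchange factor, eIF2B, so most translation falls while a few mRNAs, ATF4 among them, are translated more. ATF4 and its partner CHOP (DDIT3) then switch on target genes, and one of these is PPP1R15A, whose product removes the phosphate again.

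RNA was sequenced from HEK293T, a human embryonic kidney cell line, labelled wild type, after 6 h of treatment. Controls received 0.1% DMSO as vehicle. Thapsigargin (Tg), which empties the endoplasmic reticulum (ER) of calcium by blocking its calcium pump, was given at 500 nM, and the compound AA147 at 10 µM. The compound AA132 was given at 0.1, 0.3, 1, 3, 6, 10, 15 and 30 µM. Each condition has 1 sample in the labels and 3 numbered columns in the table, here called libraries 1, 2 and 3. Nothing in the labels says whether these came from separate cultures, so n = 3 counts libraries, and p-values measure only the spread between them, which may be technical.

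The labels give no batch or date. Totals ran from 32.3 to 37.96 M counts per library, and the second lowest was 36.4 M. Libraries of 1 condition differed across genes by more than counting error (chi-square per degree of freedom of 4.48 to 59.4, median 7.56 over 33 pairs). Each was counted as a replicate in the tests, although this spread does not show that they are separate cultures. Vehicle library 1 stood furthest from the others of its condition. Its median absolute log2 difference from them was 0.290 across genes, against a median of 0.118 over all libraries, and the difference had a Spearman correlation of -0.48 with transcript length across genes, which are not independent. Vehicle library 2 followed at 0.215, with a correlation of 0.40, but it was measured against a mean that includes library 1. Chi-square per degree of freedom was 7.46 between vehicle libraries 2 and 3. For library 1 it was 59.4 against library 2 and 46.2 against library 3. Next came library 1 of AA132 at 10 µM, with a median difference of 0.213, and library 1 of AA147, with 0.170. Against libraries 2 and 3 of its condition, the AA132 library had a chi-square per degree of freedom of 36.1 and 33.7. Between those 2 it was 6.52. The AA147 library had 23.0 and 22.2, beside 4.83 between its libraries 2 and 3. Vehicle library 1 gave the lowest level of all 33 libraries for 4 of the 6 members, EIF2AK1, EIF2AK2, EIF2AK3 and PPP1R15B, so calls against vehicle are also given without it. The HEK293T markers VIM, NEFL, NEFM and INA were present, with medians of 1297, 66.4, 46.5 and 22.3 CPM (counts scaled to a common library size). PAX2 had a median of 0.97 CPM. Of 7 markers of other cell types, PTPRC, ALB, PECAM1, CDH5 and INS had means under 0.1 CPM, and INS was at 0 in all libraries. The others, COL1A1 and CD14, had medians of 37.1 and 0.77 CPM, that of COL1A1 above INA.

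The upstream sequences of the 3 members that were called under Tg are shown first, with the letters of known elements marked. The sequences are from RefSeq on GRCh38.p14, whose promoter table held 5 of the 6 members: EIF2AK2, EIF2AK3, EIF2AK4, PPP1R15A and PPP1R15B. Positions count back from the RefSeq start, with -1 as the last base before it, and letters run 5′ to 3′ on the gene's strand. Capitals mark a match on either strand to 1 of these motifs: the CCAAT box bound by NF-Y, the cAMP response element TGACGTCA (CRE) bound by ATF and CREB factors, the amino acid response element TGATGNAA (CARE) bound by ATF4 with C/EBP, and the antioxidant response element TGACNNNGC (ARE) bound by NRF2. For EIF2AK3 all 250 bases upstream (chr2:88627465-88627714, minus strand) are given. For PPP1R15B the bases from -250 to -71 (chr1:204411888-204412067, minus strand) are given, since the bases nearer the start overlap an annotated exon of another transcript. For PPP1R15A, where such an exon covers most of the window, only 30 bases around each match are given. The PPP1R15A windows lie on the plus strand at chr19:48872352-48872381, chr19:48872232-48872261 and chr19:48872259-48872288.
EIF2AK3: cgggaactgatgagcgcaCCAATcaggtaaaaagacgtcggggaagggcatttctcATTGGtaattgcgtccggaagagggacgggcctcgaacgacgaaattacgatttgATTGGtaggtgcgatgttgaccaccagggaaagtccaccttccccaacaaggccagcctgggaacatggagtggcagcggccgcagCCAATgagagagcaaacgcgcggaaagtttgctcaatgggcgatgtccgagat
PPP1R15B: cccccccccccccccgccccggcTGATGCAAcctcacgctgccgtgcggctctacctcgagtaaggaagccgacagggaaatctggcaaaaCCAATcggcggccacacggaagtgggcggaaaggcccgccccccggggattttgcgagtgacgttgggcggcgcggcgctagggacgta
PPP1R15A, CRE: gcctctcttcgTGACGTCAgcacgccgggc
PPP1R15A, ARE, distal: tgttggagggGCGTGGTCAcgctcggaaac
PPP1R15A, ARE, proximal: aactccgccgTGACGTTGCaaaagctggaa

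PPP1R15A had 1 CRE at -58 to -51 and 2 AREs, at -179 to -171 on the opposite strand and at -152 to -144. A CRE of these letters was present in 1.77% and an ARE in 11.03% of 27305 RefSeq promoters searched over the same 250 bases. PPP1R15B had 1 CARE at -227 to -220, a motif found in 3.19% of promoters, and 1 CCAAT box at -159 to -155. EIF2AK3 had 4 CCAAT boxes, starting at -232, -194, -139 and -53, and EIF2AK2 had 2, where 33.0% of promoters held at least 1. EIF2AK4 had no match to any motif searched. None of the 5 members searched had a match to the ER stress elements (CCAAT, 9 bases of any kind and CCACG, or ATTGG, 1 base of any kind and CCACG) or to the XBP1 element TGACGTGG. None had the interferon element (GAAA, 2 bases of any kind and GAAA) or the heat shock element (GAA, TTC and GAA with 2 bases of any kind between each). The CCAAT box is also the first part of the longer ER stress element. A match describes letters and not a bound site, and the absence of one says nothing about the factor.

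In GENCODE v44 on GRCh38 the members lie on 5 chromosomes. EIF2AK1 spans chr7:6022247-6059175 and EIF2AK2 chr2:37099210-37157522, both on the minus strand. EIF2AK3 spans chr2:88556741-88691518 on the minus strand and EIF2AK4 chr15:39934115-40035591 on the plus strand. PPP1R15A, the shortest, spans chr19:48872212-48876059 on the plus strand, and PPP1R15B spans chr1:204396492-204411887 on the minus strand. Exons of EIF2AK1 share 9.69% of their bases with AIMP2 on the opposite strand, and those of PPP1R15B share 5.60% with a long noncoding RNA. For EIF2AK3 the share is 3.77%, also with an opposite long noncoding RNA, and the use of strand in counting is not stated. Only EIF2AK3 had fractional expected counts, which it had in all 33 libraries.

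Counts of the 6 genes ran from 1226 to 5745 in the vehicle libraries and from 1226 to 12910 over all 33. Per kilobase of the longest annotated transcript, PPP1R15A and EIF2AK1 were highest in vehicle, at 34.3 ± 2.3 and 31.9 ± 3.1 CPM per kb (SD, n = 3), and their libraries overlapped. EIF2AK4 followed at 14.9 ± 1.5 CPM per kb, apart from its neighbours on both sides. PPP1R15B at 8.85 ± 1.70 and EIF2AK3 at 8.08 ± 0.81 CPM per kb overlapped each other, and EIF2AK2 was lowest at 4.69 ± 1.15 CPM per kb. The place of EIF2AK3 depended on the length used. With all annotated exons merged, its length is 20.7 kb in place of 4.72 kb, and it was then last at 1.84 ± 0.18 CPM per kb, below EIF2AK2 at 4.29 ± 1.05 CPM per kb. Order among the other 5 was the same with both lengths.

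**Figure D1:**
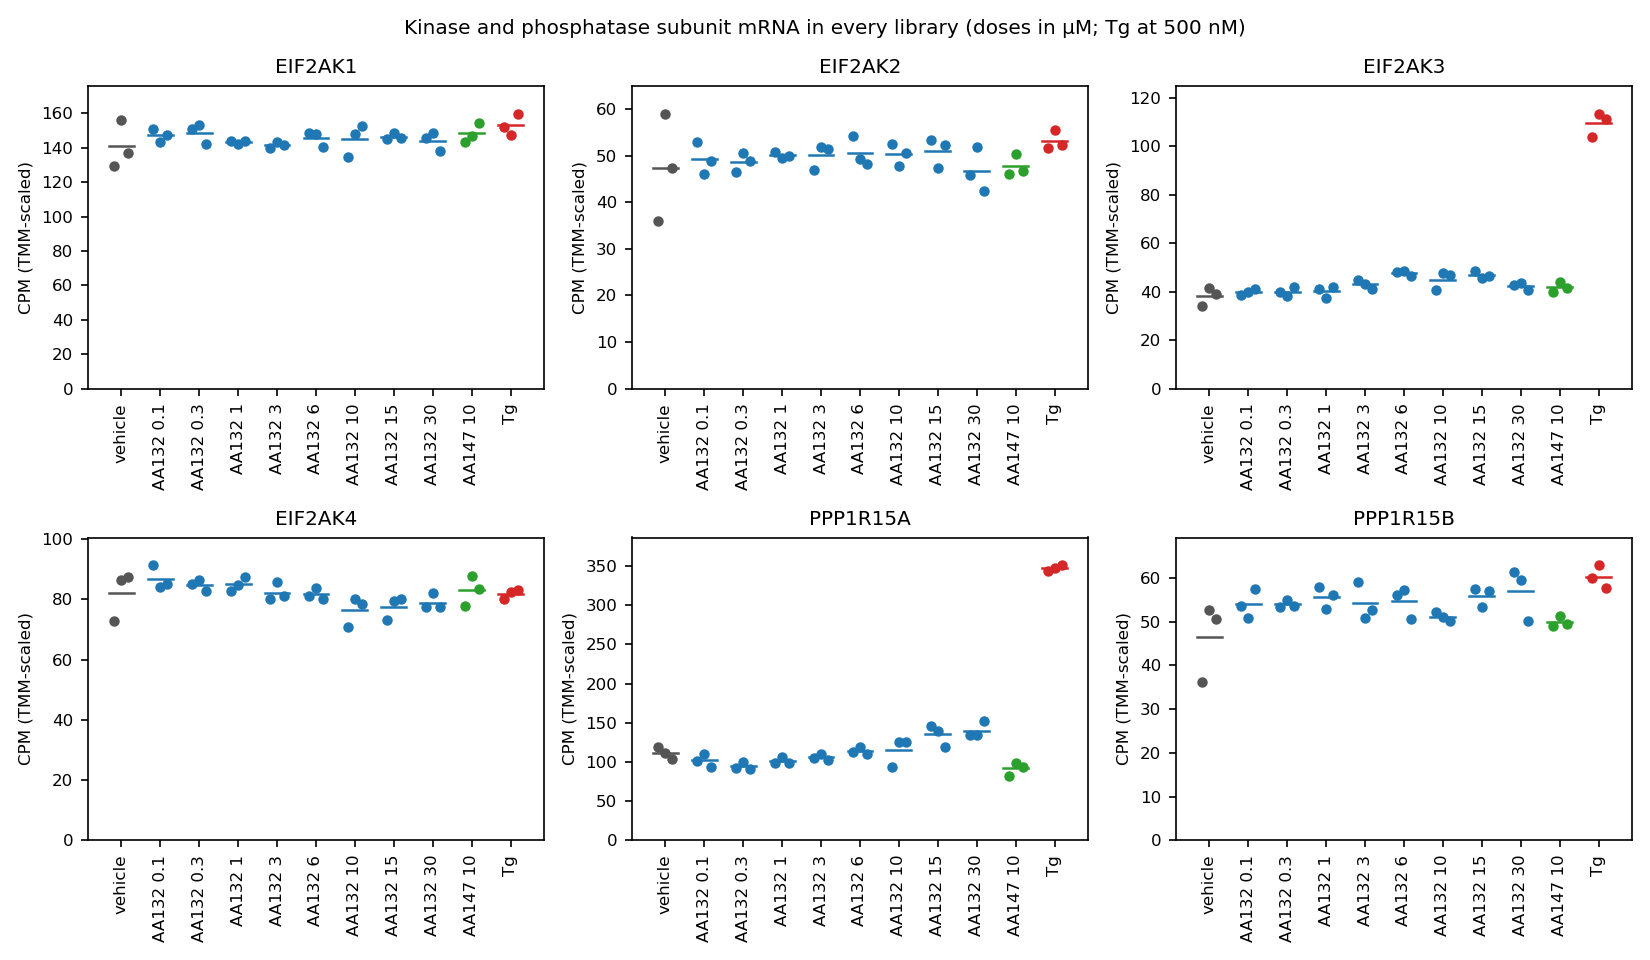
Level of each of the 6 members in every library, in CPM scaled by the trimmed mean of M values (TMM), over vehicle, 8 doses of AA132 (µM), AA147 (10 µM) and Tg (500 nM). Points are libraries and lines are means of 3. EIF2AK3 and PPP1R15A under Tg stand above all other conditions, with vehicle library 1 as the low point of EIF2AK1, EIF2AK2, EIF2AK3 and PPP1R15B.

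The comparison of Tg with vehicle asks how these genes respond to general ER stress. Of the 4 kinases, 1 rose: EIF2AK3, which encodes PERK, the kinase that spans the ER membrane and senses unfolded protein in its lumen. Both phosphatase subunits were present in vehicle, PPP1R15A at a mean of 111.4 CPM and PPP1R15B at 46.6 CPM. Of the 2 both rose, PPP1R15A (GADD34), known as the stress-inducible one, and PPP1R15B (CReP), known as the constitutive one. These 3 of 6 compare with 31.2% of all genes called under Tg, 16.2% of all genes being called higher. Libraries of the groups did not overlap for the same 3 members, as for 38.2% of all genes.

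EIF2AK3 measured 34.0, 41.4 and 39.2 CPM in vehicle libraries 1 to 3 and 104, 114 and 111 CPM in the Tg libraries. The lowest Tg library lay far above the highest vehicle library. The fitted change was 2.87-fold (95% interval 2.59 to 3.17), or 1.52 on the log2 scale with a standard error (SE) of 0.07 and an adjusted p of 7.76e-18 in the quasi-likelihood test of edgeR. Without vehicle library 1 the log2 change was 1.44 (edgeR adjusted p = 9.90e-18). The size of this change exceeded that of 97.6% of genes tested.

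PPP1R15A measured 119, 111 and 104 CPM in vehicle and 344, 347 and 351 CPM under Tg. The Tg libraries lay close together and far above vehicle. The change was 3.12-fold (2.74 to 3.55), a log2 change of 1.64 (SE 0.09, edgeR adjusted p = 4.78e-16), and 1.69 without vehicle library 1 (edgeR adjusted p = 8.58e-16). It was larger than that of 98.0% of genes tested.

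PPP1R15B measured 36.3, 52.7 and 50.7 CPM in vehicle and 60.0, 63.0 and 57.8 CPM under Tg. The groups did not overlap, but the gap between the highest vehicle and the lowest Tg library was small beside the spread in vehicle. Its log2 change was 0.37 (SE 0.09, edgeR adjusted p = 0.00182), a 1.29-fold rise (1.14 to 1.47). Without vehicle library 1 it was 0.22, less by over 1.5 times, with an edgeR adjusted p of 0.0291. In a fit of Tg and vehicle alone the call was lost (log2 change 0.37, edgeR adjusted p = 0.0897).

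The other 3 kinases did not pass the test under Tg. EIF2AK1, or HRI, is the kinase that responds to lack of heme and to signals from mitochondria. It measured 129, 156 and 137 CPM in vehicle and 152, 148 and 160 CPM under Tg, with overlapping libraries and a log2 difference of 0.12 (edgeR adjusted p = 0.122). EIF2AK2, or PKR, is the kinase that binds double-stranded RNA. It measured 35.9, 59.0 and 47.3 CPM in vehicle, the widest relative spread of the 6 members there, and 51.5, 55.4 and 52.2 CPM under Tg (log2 difference 0.16, edgeR adjusted p = 0.240). Among the alternatives run, both were called higher when vehicle library 2 was left out. The values were then 0.18 for EIF2AK1 (edgeR adjusted p = 0.0148) and 0.33 for EIF2AK2 (edgeR adjusted p = 0.00496). That run keeps vehicle library 1, the lowest of all libraries for both genes. Without vehicle library 1 the values were 0.06 for EIF2AK1 (edgeR adjusted p = 0.514) and -0.01 for EIF2AK2 (edgeR adjusted p = 0.952). EIF2AK4, or GCN2, is the kinase that senses uncharged tRNA and stalled ribosomes. It measured 72.7, 86.5 and 87.5 CPM in vehicle and 80.0, 82.3 and 83.1 CPM under Tg, and the 95% interval of its log2 difference ran from -0.14 to 0.13.

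Balances within the set moved with these changes. EIF2AK3 made up 13.6 ± 0.3% of the length-scaled mRNA of the 4 kinases in vehicle and 29.7 ± 1.0% under Tg (SD, n = 3, longest transcripts). With merged exons the shares were 4.78 ± 0.14% and 11.8 ± 0.5%, lower by over 2 times. By longest transcript, the share of EIF2AK1 was 53.6 ± 1.6% in vehicle and 44.6 ± 1.4% under Tg, and that of EIF2AK4 25.0 ± 1.3% and 19.0 ± 0.2%. PPP1R15A stood at 2.06 to 3.28 times PPP1R15B in CPM in the vehicle libraries and at 5.52 to 6.08 times under Tg. AA147 libraries had ratios of 1.68 to 1.92 and AA132 libraries at 30 µM 2.18 to 3.02, the second of which overlaps vehicle. The highest vehicle ratio was that of library 1. These shares and ratios follow from the changes given above and were not tested on their own.

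**Figure D2:**
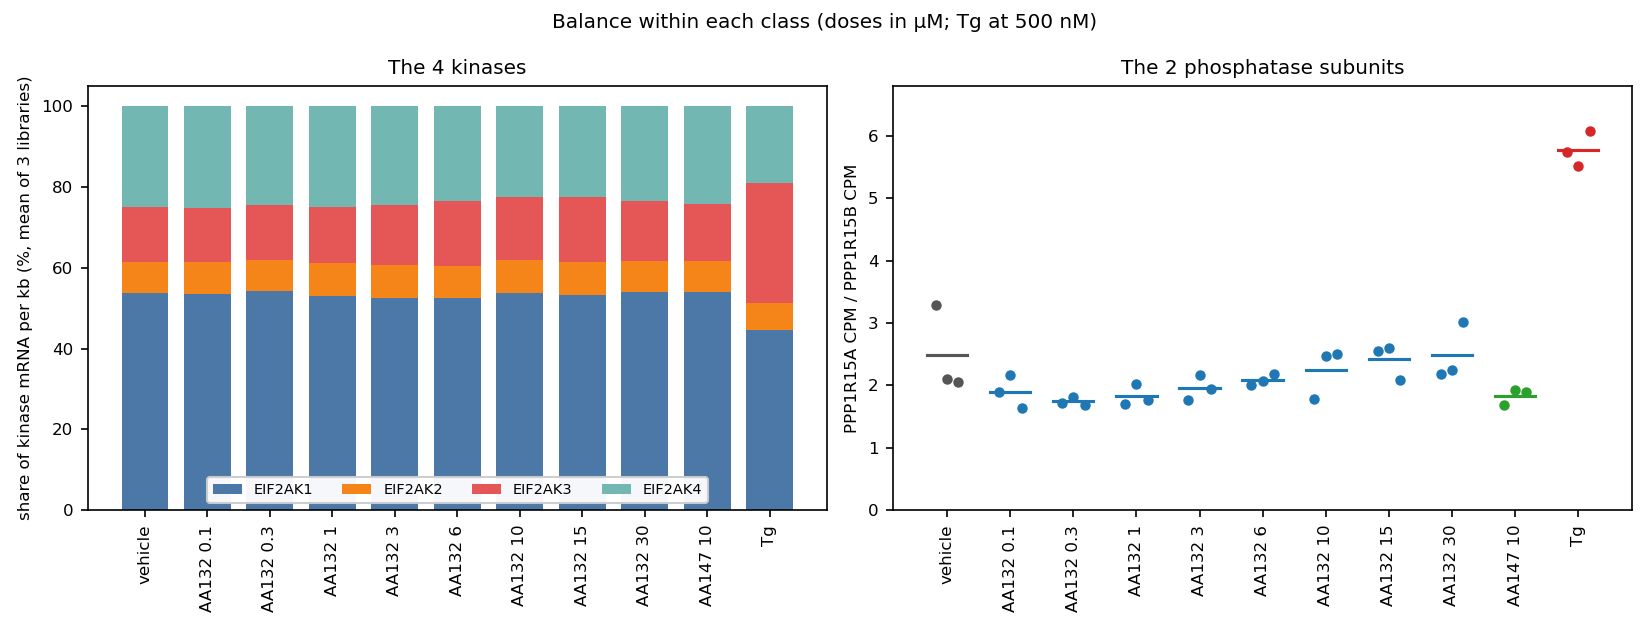
Left, share of each kinase in the summed level per kilobase of longest transcript of the 4 kinases (percent, mean of 3 libraries) in each condition. Right, ratio of PPP1R15A to PPP1R15B in CPM in each library, with the mean as a line. The EIF2AK3 share of 29.7% and the ratios of 5.52 to 6.08 under Tg stand apart from the other 10 conditions.

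Marker levels moved under Tg too. The summed level of the 5 HEK293T markers was 1241 to 1546 CPM in vehicle and 829 to 869.6 CPM under Tg, a sum that is mostly VIM. Of the 5, VIM fell by 0.79 on the log2 scale (edgeR adjusted p = 8.32e-10) and NEFL by 0.51 (2.76e-06), INA rose by 0.51 (0.000411) and NEFM by 0.38 (0.00201), and PAX2 was not called. The sum of 7 markers of other cell types was 40.8 to 51.7 CPM in vehicle and 20.1 to 20.8 CPM under Tg. It was nearly all COL1A1, which ranged over all libraries from 19.7 to 49.8 CPM, and CD14, with 0.25 to 1.83 CPM. Their part in the results on the 6 genes was not tested. In bulk RNA, fewer cells of a type and less RNA per cell cannot be told apart.

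AA147 at 10 µM was compared with vehicle. None of the 6 members was called by edgeR or by DESeq2, against 0.0225% of all genes by edgeR and 30 of 12007 by DESeq2. An unadjusted p under 0.05 was seen for 1211 of 17792 genes and for 1 of the members. That member was PPP1R15A, at 82.4, 98.8 and 94.1 CPM. All 3 libraries lay below the lowest vehicle library, and 1 of 6 members and 7.46% of all genes did not overlap, 3.47% of all genes from below. The log2 difference was -0.28 (SE 0.09, edgeR adjusted p = 0.462), and -0.23 without vehicle library 1 (edgeR adjusted p = 0.419). EIF2AK3 measured 39.95, 43.98 and 41.5 CPM, overlapping vehicle, with a log2 difference of 0.13 and a 95% interval of -0.01 to 0.28. Intervals of the others ran from -0.05 to 0.20 for EIF2AK1, -0.20 to 0.22 for EIF2AK2, -0.12 to 0.15 for EIF2AK4 and -0.08 to 0.29 for PPP1R15B.

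The dose series of AA132 asks how the members follow the amount of the compound. At 0.1, 0.3, 1 and 3 µM edgeR called none of the 6 members, and DESeq2 none. Over all genes edgeR called 0.0% at each of the first 3 doses and 0.118% at 3 µM. At the first 3 doses 798, 980 and 1056 genes had an unadjusted p under 0.05, and DESeq2 called 1, 7 and 0 genes. At 3 µM 1635 of 17792 genes had such a p, and DESeq2 called 71 of 12590. Members with an unadjusted p under 0.05 numbered 1, 2, 1 and 2 at the 4 doses, and PPP1R15B was among them each time, with log2 differences of 0.21, 0.21, 0.26 and 0.22. Without vehicle library 1 these were 0.06, 0.06, 0.11 and 0.07, less by over 1.5 times. At 0.3 µM 2 members did not overlap vehicle (8.25% of all genes), PPP1R15A from below at 92.2, 100.01 and 90.6 CPM and PPP1R15B from above at 53.5, 55.1 and 53.5 CPM. At 1 µM it was PPP1R15B alone (7.86% of all genes).

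EIF2AK3 was the member called at intermediate doses. At 6 µM it measured 48.3, 48.7 and 46.6 CPM, all above the vehicle libraries, a separation seen for 1 of 6 members and 14.8% of all genes. It was the only 1 of the 6 called, against 1.07% of all genes, 0.866% of all being called higher, with a log2 change of 0.33 (SE 0.07, edgeR adjusted p = 0.0114), a 1.25-fold rise (1.13 to 1.39). Without vehicle library 1 the change was 0.25 (edgeR adjusted p = 0.0443). The call was lost in a fit of these 2 conditions alone (edgeR adjusted p = 0.455) and without library 1 or library 2 at 6 µM (edgeR adjusted p = 0.0640 and 0.0615).

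At 10 µM EIF2AK3 measured 40.7, 47.6 and 46.8 CPM, with library 1 inside the vehicle range. That library also stood furthest from the others of its condition across genes. None of the 6 members was called by edgeR, against 1.41% of all genes, 1 had an unadjusted p under 0.05, and DESeq2 called 1, EIF2AK3 (log2 change 0.24, DESeq2 adjusted p = 0.0257). Over all genes 2291 of 17792 had such an unadjusted p, and DESeq2 called 492 of 14341. The edgeR value for EIF2AK3 was 0.24 (adjusted p = 0.0916), and 0.30 without library 1 of that dose (edgeR adjusted p = 0.0256). It was 0.29 without vehicle library 2 (edgeR adjusted p = 0.0395), but 0.16 without vehicle library 1 (edgeR adjusted p = 0.224).

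At 15 µM 3 members lay above vehicle without overlap, where 16.1% of all genes lay apart and 8.87% lay above, and edgeR called 1 of the 6, against 2.76% of all genes, 1.97% of all being called higher. EIF2AK3, the one called, measured 48.4, 45.6 and 46.5 CPM and its log2 change was 0.30 (SE 0.07, edgeR adjusted p = 0.0161). PPP1R15A measured 146, 139 and 119.6 CPM, and its lowest library lay barely above the highest vehicle library at 119.2 CPM. Its log2 difference was 0.28 (edgeR adjusted p = 0.0883), and DESeq2 called it beside EIF2AK3 (0.28, DESeq2 adjusted p = 0.0458). DESeq2 called 807 of 13757 genes at this dose. PPP1R15B measured 57.4, 53.5 and 57.1 CPM, with a log2 difference of 0.27 (edgeR adjusted p = 0.113). Without vehicle library 1 the call moved from EIF2AK3 (0.22, edgeR adjusted p = 0.0826) to PPP1R15A (0.33, edgeR adjusted p = 0.0472).

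At 30 µM both phosphatase subunits were called and no kinase was, 2 of 6 members against 7.05% of all genes, 3.86% of all being called higher. PPP1R15A measured 134, 134 and 152 CPM, above each vehicle library, and it was the 1 member whose libraries did not overlap vehicle (18.9% of all genes). Its log2 change was 0.33 (SE 0.09, edgeR adjusted p = 0.0193), a 1.26-fold rise (1.11 to 1.43), and 0.38 without vehicle library 1 (edgeR adjusted p = 0.00758). Without library 3 of that dose it was 0.27 (edgeR adjusted p = 0.111), and without vehicle library 3 it was 0.28 (edgeR adjusted p = 0.0892). In the fit of the 2 conditions alone the adjusted p was 0.197.

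PPP1R15B at 30 µM measured 61.4, 59.5 and 50.2 CPM, and its lowest library lay inside the vehicle range. The log2 change was 0.29 (SE 0.09, edgeR adjusted p = 0.0447). It rested on vehicle library 1: without that library it was 0.14, less by over 1.5 times, and not called (edgeR adjusted p = 0.245). The call was also lost without library 1 or 2 of that dose (edgeR adjusted p = 0.212 and 0.157). EIF2AK3 measured 42.8, 43.8 and 40.9 CPM at this dose, overlapping vehicle, with a log2 difference of 0.15 (edgeR adjusted p = 0.213).

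Markers moved at 30 µM as well. The HEK293T markers summed to 1159.6 to 1260.5 CPM, overlapping vehicle, and of the 5 INA rose by 0.39 (edgeR adjusted p = 0.0233), NEFM by 0.31 (0.0375) and NEFL fell by 0.33 (0.00634). The 7 markers of other cell types summed to 35.1 to 35.9 CPM, below the vehicle range, while edgeR called neither COL1A1 nor CD14. Both of these had an unadjusted p under 0.05, as did 3643 of 17792 genes, with log2 differences of -0.94 and -0.35. DESeq2 called 1 of the 7 markers. Their part in the calls of PPP1R15A and PPP1R15B was not tested.

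**Figure D3:**
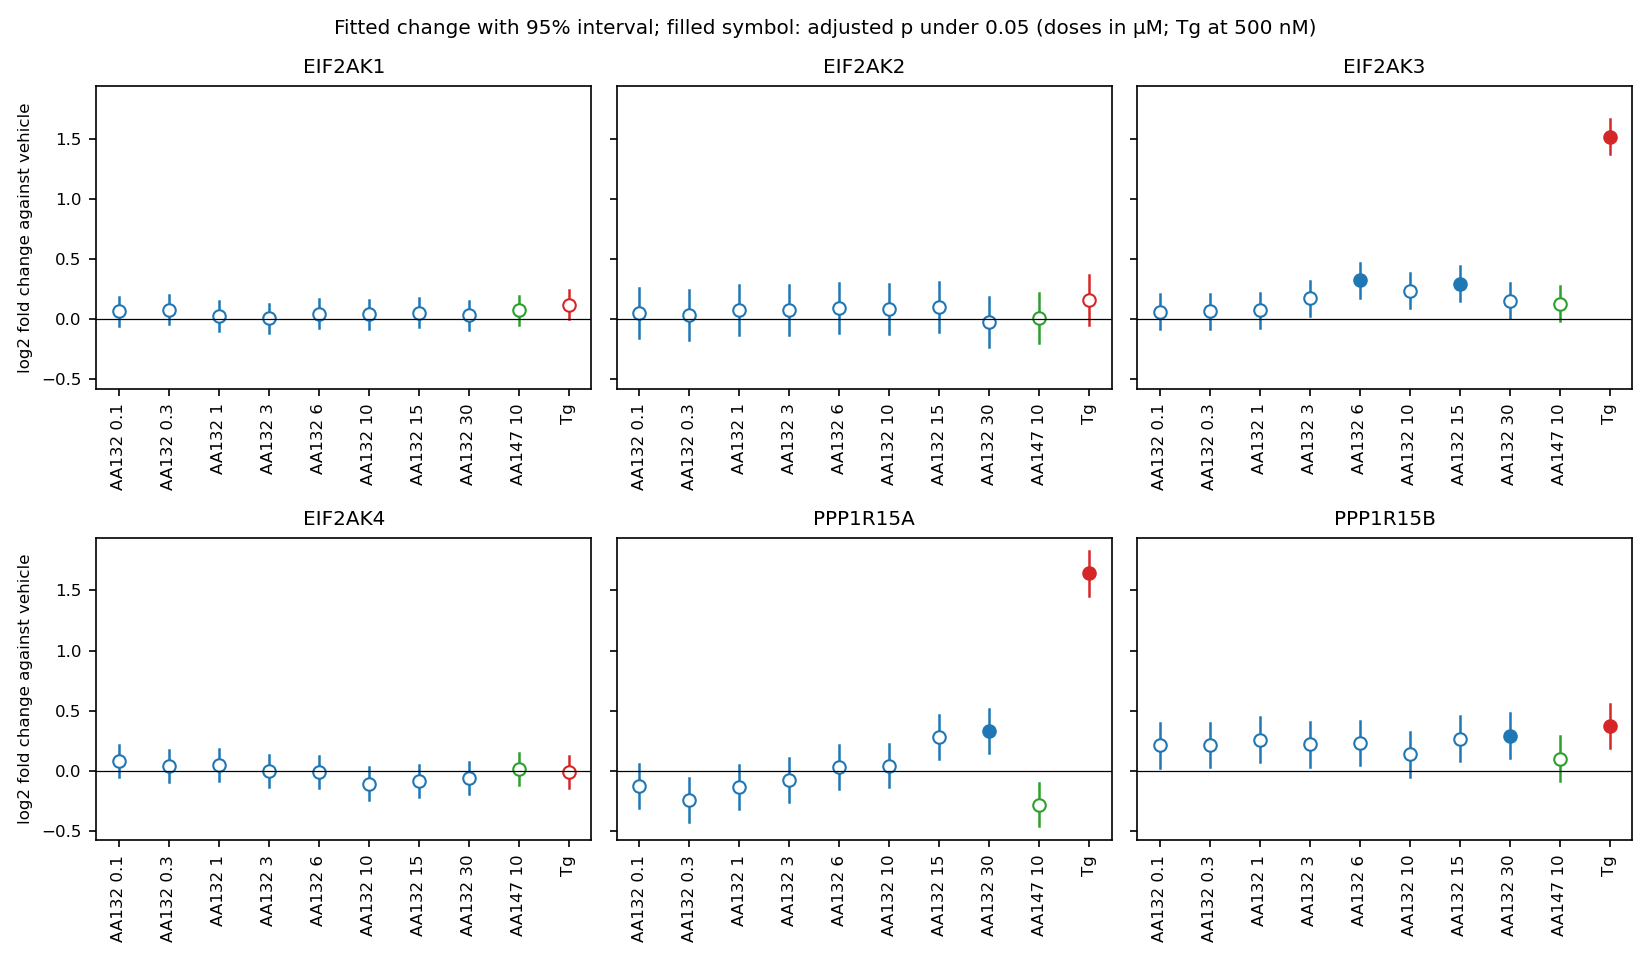
Fitted log2 fold change against vehicle for each of the 6 members (points) with its 95% interval (bars), at 8 doses of AA132 (µM), AA147 (10 µM) and Tg (500 nM). Filled symbols passed an edgeR adjusted p under 0.05. EIF2AK3 under AA132 is filled at 6 µM (0.33) and 15 µM (0.30), and PPP1R15A at 30 µM (0.33), while both exceed 1.5 under Tg.

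The slope on log10 dose over the 24 AA132 libraries did not use vehicle. It passed the test for 3 of 6 members, against 19.4% of 17031 genes, of which 10.3% of all rose and 9.11% fell. PPP1R15A rose by 0.20 on the log2 scale for each 10-fold increase in dose (SE 0.03, edgeR adjusted p = 1.85e-05), from a mean of 94.3 ± 5.0 CPM at 0.3 µM, its lowest dose, to 140.0 ± 10.2 CPM at 30 µM (SD, n = 3). Without the doses under 1 µM its slope was 0.34, more by over 1.5 times (edgeR adjusted p = 0.000188).

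EIF2AK3 rose by 0.09 per 10-fold increase (SE 0.02, edgeR adjusted p = 0.00549), and EIF2AK4 fell by 0.07 (SE 0.02, edgeR adjusted p = 0.00431). EIF2AK4 went from 86.9 ± 3.9 CPM at 0.1 µM to 76.4 ± 5.0 CPM at 10 µM and 78.9 ± 2.7 CPM at 30 µM. Neither slope was called without the doses under 1 µM, at 0.09 for EIF2AK3 (edgeR adjusted p = 0.263) and -0.09 for EIF2AK4 (edgeR adjusted p = 0.103). EIF2AK1 and EIF2AK2 had slopes of -0.01 and 0.00, with 95% intervals of -0.04 to 0.02 and -0.04 to 0.05. PPP1R15B had a slope of 0.01 (edgeR adjusted p = 0.706).

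EIF2AK3 and PPP1R15A differed in where they were highest within the dose series, and 30 µM was therefore compared with 6 µM, a comparison chosen after the values were seen. EIF2AK3 was lower in each of the 30 µM libraries than in any 6 µM library, with a log2 difference of -0.17 (edgeR adjusted p = 0.188). PPP1R15A was higher in each 30 µM library, since the 6 µM libraries held 112.6, 118.5 and 110.6 CPM, with a log2 difference of 0.30 (edgeR adjusted p = 0.0544). These 2 of 6 members did not overlap, as for 27.5% of all genes. edgeR called none of the 6, against 3.59% of all genes, with 2 at an unadjusted p under 0.05, and DESeq2 called 1, PPP1R15A (log2 change 0.30, DESeq2 adjusted p = 0.0246). Over all genes 3060 of 17792 had such an unadjusted p, and DESeq2 called 1068 of 13174.

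The 2 compounds could be compared at 10 µM. edgeR called none of the 6 members, against 0.0674% of all genes, and DESeq2 called none, against 67 of 14341 genes. An unadjusted p under 0.05 was found for 1426 of 17792 genes and for 1 of the members. That 1 was PPP1R15A, at 92.9, 126.0 and 125.8 CPM with AA132 and 82.4, 98.8 and 94.1 CPM with AA147. Library 1 of AA132 lay among the AA147 libraries and the other two lay above them. The log2 difference was 0.32 (95% interval 0.14 to 0.51, edgeR adjusted p = 0.218), and 0.45 without library 1 of AA132 (edgeR adjusted p = 0.00610). For EIF2AK3 the log2 difference was 0.11 (edgeR adjusted p = 0.759).

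AA132 at its highest dose was also set against Tg directly. EIF2AK3 was 1.37 lower on the log2 scale with AA132 at 30 µM, a difference of -1.37 (SE 0.07, edgeR adjusted p = 3.89e-16), and PPP1R15A differed by -1.31 (SE 0.09, edgeR adjusted p = 2.39e-13). These 2 of 6 members compare with 29.8% of all genes called, 15.5% of all genes called lower, and they were the same members whose libraries did not overlap, as for 46.8% of all genes. In PPP1R15B the log2 difference was -0.08 (edgeR adjusted p = 0.560), in fold terms 0.95 (0.83 to 1.08). EIF2AK1, EIF2AK2 and EIF2AK4 were not called, with log2 differences of -0.09, -0.18 and -0.05.

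The genes around the 6 members were described from lists written from general knowledge, and their counts and medians are descriptions. Of 8 subunits of eIF2, the substrate, and of eIF2B, 1 was called under Tg, EIF2S2, the beta subunit of eIF2, at 0.49 (edgeR adjusted p = 8.00e-07), and the median of the 8 was 0.02 beside 0.00 for all genes. At 30 µM AA132 edgeR called none of the 8, of which 3 had an unadjusted p under 0.05, and all 8 had log2 differences under 0. DESeq2 called 1, EIF2S1, the alpha subunit that the kinases phosphorylate (log2 change -0.21, DESeq2 adjusted p = 0.0291). Over all genes 3643 of 17792 had an unadjusted p under 0.05 at this dose, and DESeq2 called 1698 of 14924. Of the 3 catalytic subunits of protein phosphatase 1, the enzyme that PPP1R15A and PPP1R15B direct, PPP1CC fell by 0.17 under Tg (edgeR adjusted p = 0.0153) and PPP1CA and PPP1CB were not called.

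Among 4 activators of the kinases, OMA1, the mitochondrial protease that acts ahead of DELE1 and EIF2AK1, fell by 0.49 under Tg (edgeR adjusted p = 0.000107). DELE1, listed as KIAA0141, rose by 0.23 (edgeR adjusted p = 0.0301) and PRKRA, an activator of EIF2AK2, by 0.20 (edgeR adjusted p = 0.0132). GCN1, the ribosome-bound partner of EIF2AK4, was not called. Of 5 inhibitors, 3 rose under Tg. HSPA5, the ER chaperone that holds EIF2AK3 inactive, rose by 3.52 (edgeR adjusted p = 1.98e-17), DNAJC3, an inhibitor of EIF2AK2 and EIF2AK3, by 2.08 (edgeR adjusted p = 6.77e-15), and IMPACT, an inhibitor of EIF2AK4, by 0.75 (edgeR adjusted p = 7.16e-08). With AA132 at 30 µM HSPA5 rose by 1.46 (edgeR adjusted p = 1.45e-07) and DNAJC3 by 0.85 (edgeR adjusted p = 3.36e-05), while neither edgeR nor DESeq2 called any of the 4 activators and 0 had an unadjusted p under 0.05.

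Downstream, 17 of 18 genes of the ATF4 and CHOP branch rose under Tg and none fell, with a median log2 change of 2.12. GDF15, a stress cytokine, rose by 4.61 (edgeR adjusted p = 5.40e-07) and TRIB3, a pseudokinase that binds ATF4, by 3.89 (edgeR adjusted p = 4.29e-22). SLC7A11, the cystine transporter, rose by 3.65 (edgeR adjusted p = 9.63e-12) and DDIT3 by 3.62 (edgeR adjusted p = 3.53e-17). ATF5 was the exception, at -0.04 (edgeR adjusted p = 0.851). PPP1R15A, a target of the same branch kept off the list, had 1.64. With AA132, 6, 10, 14 and 14 of the 18 rose at 6, 10, 15 and 30 µM and none fell, with medians of 0.33, 0.48, 0.63 and 0.67 beside 0.00, 0.01, 0.00 and 0.00 for all genes. At 30 µM the changes were 2.77 for SLC7A11 (edgeR adjusted p = 1.22e-07) and 1.36 for its partner subunit SLC3A2 (edgeR adjusted p = 1.47e-08). With AA147 neither edgeR nor DESeq2 called any of the 18, although 9 had an unadjusted p under 0.05, and their median was 0.17. Of all genes 1211 of 17792 had such a p.

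**Figure D4:**
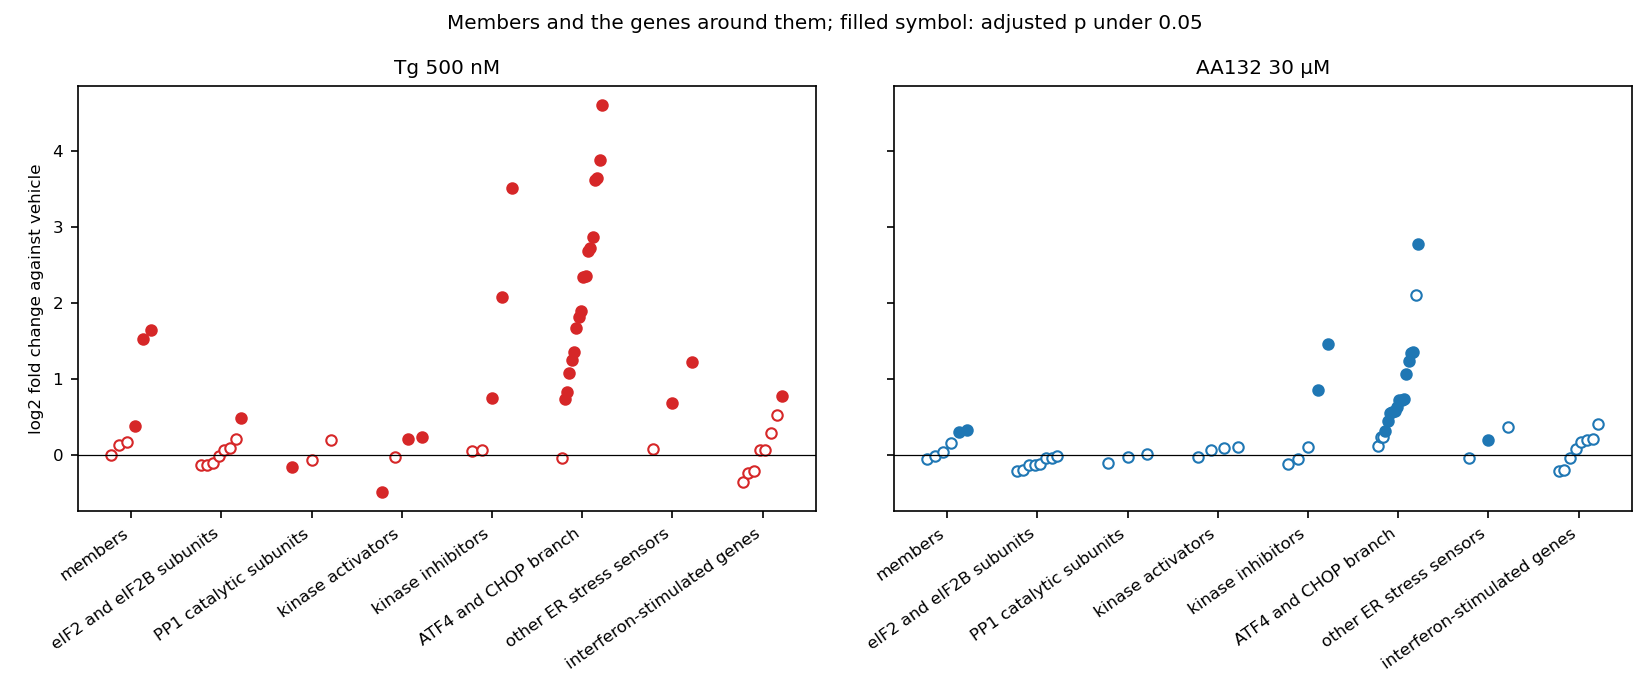
Log2 fold change against vehicle of the 6 members and of the genes on each list around them, under Tg (500 nM) and AA132 (30 µM). Each point is a gene, with filled points for edgeR adjusted p under 0.05. The ATF4 and CHOP branch has 17 of 18 genes filled under Tg and 14 of 18 with AA132.

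Other sensors of ER stress were measured beside EIF2AK3. ERN1, which encodes IRE1, rose by 1.22 under Tg (edgeR adjusted p = 8.87e-07) and ATF6 by 0.68 (edgeR adjusted p = 2.47e-11), beside 1.52 for EIF2AK3. ATF6B, also tested, was not called, at 0.07 (edgeR adjusted p = 0.476). ATF6 was the one called with AA132 at 30 µM, at 0.20 (edgeR adjusted p = 0.0338), where EIF2AK3 was not. EIF2AK2 is itself an interferon-stimulated gene. Of 8 other such genes tested 1 was called under Tg, MX1, at 0.78 (edgeR adjusted p = 0.0360), and with AA132 at 30 µM edgeR and DESeq2 called 0, with 0 at an unadjusted p under 0.05.

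The genes most like each member over the 11 condition means (log2 CPM, Pearson's r, 14010 genes with a mean of at least 1 CPM) were listed as a description. The means share vehicle and Tg libraries with the results above, so r without Tg is given beside it. For EIF2AK3 they were HK2 (r = 0.996, and 0.937 without Tg), PDIA5 (0.995 and 0.928) and MTHFD1L (0.994 and 0.897). For PPP1R15A they were CHPF (0.991 and 0.933), GARS (0.990 and 0.924) and KIZ (0.989 and 0.913). Ranked over the 10 conditions without Tg, a list named after its values were seen, other genes came first. For EIF2AK3 these were CD44 (0.961), HSPB8 (0.960) and JUN (0.959), whose r with Tg included was -0.13, 0.02 and -0.59. For PPP1R15A they were RIPK1 (0.967), CYLD (0.958) and C11orf96 (0.956), with 0.13, 0.84 and 0.81. The genes named for these 2 members thus depend on the Tg condition.

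For the members that changed less, r over 11 conditions was lower. PPP1R15B was most like KAT7 (0.967, and 0.954 without Tg), KLHDC10 (0.952 and 0.957) and TECTA (0.951 and 0.954). EIF2AK4 was most like NOL4 (0.951 and 0.954), RNPS1 (0.937 and 0.938) and NUP205 (0.932 and 0.938). EIF2AK2 was most like PTPN11 (0.950 and 0.921), RAD50 (0.948 and 0.922) and CLIP1 (0.934 and 0.938). EIF2AK1 was most like SLC37A3 (0.924 and 0.856), FAM193A (0.910 and 0.877) and ZAK (0.907 and 0.826). Ranked without Tg, other genes came in here too. EIF2AK1 was then nearest ALDH6A1 (0.932), CAP2 (0.906) and NUP50 (0.896), with r over 11 conditions of 0.85, -0.21 and 0.72. EIF2AK4 was nearest PPM1F (0.979), GEMIN4 (0.966) and SBF1 (0.965), with 0.36, 0.41 and 0.47. For EIF2AK2 CLIP1 stayed, while ANKRD23 and LUZP1 came in, with 0.51 and -0.13. For PPP1R15B KLHDC10 and TECTA stayed, and SMURF1 came in, with 0.24.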

How the data were processed

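The authors deposited 1 table of expected counts, estimated reads per gene and not scaled between libraries, with 3 numbered columns for each of 11 conditions. The submitters' processing notes name GRCh38.p7. The aligner, counting tool, annotation and use of strand are not given in the sources used here. The value 0.009, which fills 43.5% of cells in place of 0, was set to 0, counts were rounded, and 102 of 38074 entries that shared 47 names were summed, which left 38019 genes. A set of 28 entries with names turned into dates stayed in library totals.

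edgeR 4.0.16 (R 4.3.3) gave the quasi-likelihood tests, after TMM scaling and its own filter on low counts, all 33 libraries in 1 fit with no block, and Benjamini-Hochberg adjustment over all 17792 genes in each comparison. Genes were called at an adjusted p under 0.05. The slope on log10 dose used the 24 AA132 libraries. Levels are TMM-scaled CPM with the SD over 3 libraries. The SE is the log2 change over the root of F. Lengths and positions are from GENCODE v44 and played no part in counting. The fits were tested on simulated data.

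The 6 members, the lists, the markers and the tests were chosen with earlier results of these data known. Named genes are the members, up to 4 called genes of each list with the largest change under Tg and up to 2 with AA132 at 30 µM, and the 3 genes most like each member. Other list genes are named to account for a list. The alternatives were DESeq2 1.42.0, median-of-ratios factors, no filter, a mean of at least 1 CPM, a replicate block, the compared conditions alone, leaving out each library, and fewer doses. Fitted over all conditions, the spread of the 6 members beyond counting error was 5.24% to 8.59% of the mean. The SD of CPM within a condition is another measure, since it includes counting error. For EIF2AK3 at 6 µM it was 1.08 around 47.9 CPM, with 1838, 1815 and 1757 counts.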

Additional observations from a re-analysis of the deposited data

Results flagged for a closer look

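The members that responded most to Tg differed between Tg and AA132 at 30 µM in the direct test of the difference. EIF2AK3 had a difference of -1.37 on the log2 scale (edgeR adjusted p = 3.89e-16), with all 3 AA132 libraries, at 42.8, 43.8 and 40.9 CPM, below the Tg libraries at 104, 114 and 111 CPM. PPP1R15A had a difference of -1.31 (edgeR adjusted p = 2.39e-13), with 134, 134 and 152 CPM against 344, 347 and 351 CPM. The 2 treatments differ in agent and dose, and the doses are not matched.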

How the results depend on the processing

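Over the alternatives, 1122 values of single members were recomputed: 1088 kept their direction and their side of the threshold, or were not called either way, 17 lost a call, 17 gained one, and no called value changed direction. A further check of sign found 57 values that were not called either way and changed sign, included in the 1088. The numbers of members called were as follows where they moved. Leaving out 1 library at a time gave 3 to 5 under Tg (5 without vehicle library 2), 0 to 1 at 6 µM AA132, 0 to 1 at 10 µM, 0 to 2 at 15 µM, 1 to 2 at 30 µM and 0 to 1 between AA132 and AA147 at 10 µM. Of 18081 to 18114 genes tested, the same runs called 4571 to 5768 under Tg (5768 without vehicle library 2). With AA132 they called 95 to 506 at 6 µM, 156 to 651 at 10 µM and 267 to 920 at 15 µM. At 30 µM 700 to 2015 were called, and between the compounds 0 to 77. With only the 2 conditions compared, 2 were called under Tg in place of 3 (PPP1R15B lost), 0 at 6, 15 and 30 µM and 1 between 30 and 6 µM. All genes called then numbered 3075 under Tg and 25, 46 and 74 at 6, 15 and 30 µM. Between 30 and 6 µM 1310 were called. DESeq2 called 1 at 10 µM, 2 at 15 µM and 1 between 30 and 6 µM. Its calls over all genes were 492 of 14341, 807 of 13757 and 1068 of 13174. With no filter on low counts 2 were called at 15 µM, 1 between the compounds and 1 between 30 and 6 µM, and with a mean of at least 1 CPM 1 between 30 and 6 µM. Without the filter 703, 99 and 755 of 30094 genes were called in those comparisons. With a mean of at least 1 CPM 734 of 14011 were called between 30 and 6 µM. Without the doses under 1 µM, 1 slope was called in place of 3, and 2358 of 16979 over all genes in place of 3310 of 17031. The cause of these moves was not tested.

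With the column number as a replicate block, 1 member was called at 30 µM in place of 2 (PPP1R15B, log2 change 0.29, edgeR adjusted p = 0.0540) and 1 between 30 and 6 µM in place of 0 (PPP1R15A, 0.30, edgeR adjusted p = 0.0444), and no other call of a member changed. Over all genes the block gave 1254 and 633 calls in these comparisons, against 1255 and 638 without it. The numbers did not pair the libraries: deviations of same-numbered libraries correlated at 0.00 on average (-0.15 to 0.18), and 13 of 33 libraries were closest to their own number.

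Calls at 6 to 30 µM rest on changes of under 1.3-fold with 3 libraries a condition, and each was lost on leaving out at least 1 of these libraries. The comparison of 30 with 6 µM was added after the data were seen.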
